A study of Mus musculus with 12 samples.

Results

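Mitochondrial ribosomal protein genes were taken as all protein-coding genes of the GRCm38 table whose symbol begins with Mrpl or Mrps followed by a digit. The rule gave 78 of 21896 protein-coding genes, 49 named for the large subunit (Mrpl) and 29 for the small subunit (Mrps). Peaks from ATAC-seq, which uses the Tn5 transposase to cut open chromatin, were merged into 16028 regions over 6 peak lists. A region was given to the protein-coding gene it overlapped or to the one whose start or end lay nearest within 50000 bases. On this basis 61 regions belonged to 52 members.

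The cells were murine ER-Hoxa9-Lys-GFP cells of C57BL/6 origin, grown in medium with stem cell factor conditioned supernatant. They carry Hoxa9 fused to the estrogen receptor, so that estradiol (E2) keeps the fusion active, and a GFP reporter of lysozyme expression. All 6 groups share these alleles, and all libraries come from this cell line in culture. The cells of one group were never deprived of E2, and those of another spent 120 h without it. In the other 4 groups E2 was absent for 24, 40, 56 or 72 h and then restored for 96, 80, 64 or 48 h, so both durations changed together. Each group had 2 libraries and 1 peak list, which held positions and no score, count or depth. There was therefore no replicate spread, no p-value between conditions was computed, and the 95% Wilson intervals below cover counting error over genes or regions only. As these were bulk cultures, a smaller share of cells with an open site and a weaker opening in every cell cannot be told apart. Longer withdrawal also came with shorter lists, from 13165 peaks in continuous E2 to 11465, 9940, 8989 and 9581 in the add-back lists in order of withdrawal and 7987 at 120 h. The part that list length played in the results was not tested. Among marker genes, regions were given to 5 of 6 progenitor genes in continuous E2 and to 3 at 120 h, and to 4 and 2 of 10 neutrophil and granule genes. The numbers were 2 and 3 of 4 for monocyte genes, 2 and 0 of 4 for erythroid genes, 2 and 1 of 4 for B cell genes and 0 in both lists of 4 for T cell genes.

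Mitochondrial ribosomes translate the few proteins encoded by mitochondrial DNA, which are core subunits of the respiratory chain and of ATP synthase. All of their proteins are encoded in the nucleus and imported. Some descend from bacterial ribosomal proteins and keep the bacterial number in their name, while the higher numbers were given to proteins without a bacterial counterpart. Promoters of such nuclear genes are known for binding of NRF1 and of ETS factors such as GABP. Many of these genes also lie head to head with a neighbour, so that a single stretch of open chromatin serves both start sites.

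Head-to-head promoters were common among the members. The RefSeq promoter table (GRCm38.p6) held start sites of 69 members. Of these, 25 (36.2%) had the start site of another protein-coding gene of the table on the opposite strand within 1000 bases, against 9.32% of all 17491 protein-coding genes in the table. The share was 28.6% in respiratory chain and ATP synthase genes and 31.6% in mitoribosome assembly factor genes. It was 16.7% in mitochondrial translation factor genes and 14.5% in cytosolic ribosomal protein genes. Among genes with a peak at a start site in continuous E2, 23 of 57 members and 1358 of 6655 genes of the table had such a partner. The 5 pairs with the shortest stretch between them are shown because peaks at such promoters were called more steadily, as given further on. Each line gives, from RefSeq, all bases between the start sites on the strand of the member.
Ighmbp2 and Mrpl21: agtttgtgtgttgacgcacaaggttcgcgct
Mrpl46 and Mrps11: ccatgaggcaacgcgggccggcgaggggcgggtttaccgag
Eme1 and Mrpl27: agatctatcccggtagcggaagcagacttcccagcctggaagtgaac
Mitd1 and Mrpl30: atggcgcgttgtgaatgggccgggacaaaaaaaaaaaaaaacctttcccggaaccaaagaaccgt
Ska3 and Mrpl57: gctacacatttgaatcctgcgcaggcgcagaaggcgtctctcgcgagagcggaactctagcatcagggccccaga
The stretches hold 31, 41, 47, 65 and 75 bases. They lie on the plus strand at chr19:3283011-3283041, chr7:78783090-78783130, chr11:94653744-94653790, chr1:37890412-37890476 and chr14:57826164-57826238. None of these stretches holds a match to the NRF1, ETS, YY1 or ZNF143 motifs searched for in the promoters. The 300-base promoters reach beyond them and do hold such matches. ETS letters were in the promoters of Mrpl21, Mrpl27 and Mrpl57, and YY1 letters in that of Mrps11. The pair of Mrpl46 and Mrps11 joins a large and a small subunit gene under 1 peak, which was called in every list. The peak of Mrpl21 and Ighmbp2, a helicase gene, was present in continuous E2 and with 24 or 40 h of withdrawal, and in no later list. The other 3 pairs, with the DNA repair gene Eme1, with Mitd1 and with the kinetochore gene Ska3, were called in all 6 lists.

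Of the 61 regions given to members, 33 were called both in continuous E2 and at 120 h (kept), 22 in continuous E2 and not at 120 h (lost), 5 at 120 h and not in continuous E2 (gained) and 1 at neither. The lost share was 40.0% of the 55 regions called in continuous E2 (interval 28.1 to 53.2), against 50.6% over all regions. The gained share was 13.2% of the 38 called at 120 h (5.75 to 27.3), against 18.4% over all regions. All 6 lists shared 29 member regions, 47.5% (35.5 to 59.8), against 32.8% over all regions. Most member regions, 46 of 61, touched a gene boundary, defined as the 1000 bases around the start or end of a gene. Over all regions at such boundaries, 29.6% were lost, 9.97% were gained and 51.8% were in all 6 lists, and these values lay inside the intervals of the 46 member regions there (38.1% lost, 25 to 53.2; 13.3% gained, 5.31 to 29.7; 50% in all lists, 36.1 to 63.9).

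The assignment to a single gene left out members whose promoter region went to the neighbour. Of the 26 members without a region, 18 had one at their boundary that was given to another gene. These were Mrpl13, Mrpl18, Mrpl21, Mrpl27, Mrpl30, Mrpl32, Mrpl34, Mrpl40, Mrpl44, Mrpl47, Mrpl50, Mrpl51, Mrpl57, Mrps6, Mrps11, Mrps12, Mrps18b and Mrps18c. Shared regions joined Mrpl32 to Psma2, a proteasome subunit gene, Mrpl18 to Tcp1, a chaperonin gene, Mrpl40 to the histone chaperone gene Hira, Mrps12 to Sars2, the mitochondrial seryl-tRNA synthetase, and Mrpl47 to Ndufb5, a complex I subunit. The farthest regions still given to members lay 34046 bases from Mrps28 and 36515 bases from Mrps18a, and the nearest beyond the limit lay 89999 bases from Mrpl46. Because a single nearest gene hides shared promoters, each member was next read at its own start sites, where a gene counted as called when a peak lay within 500 bases.

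At the start sites, 57 of 69 members (82.6%, interval 72.0 to 89.8) were called in continuous E2, against 38.0% of all genes in the table. The numbers after 24, 40, 56 and 72 h without E2 followed by add-back were 57, 53, 48 and 50, and at 120 h it was 45 (65.2%, 53.4 to 75.4). The shares of all genes were 37.3%, 36.0%, 35.1%, 36.4% and 30.6% in the same order. Members were thus called at a higher level than all genes in every list, and their number was lowest at 120 h. Of the members called in continuous E2, 17 were lost at 120 h (29.8%, 19.5 to 42.7), and of those called at 120 h, 5 were gained (11.1%, 4.84 to 23.5). Over all start sites 26.9% were lost and 9.05% gained, so the shares of the members lay near the background and give no result particular to them. Cutting each list to its 7987 widest peaks left the 120 h list whole. Members called in continuous E2 went from 57 to 36, while the 45 at 120 h stayed, so the gained share could not fall. It was then 37.8% in members and 23.4% over all start sites, and the difference was not tested. Leaving out peaks under the median width of their list, with lists not made equal, the gained share was 20% and 18.5%. Of the 62 members called in 1 or more lists, 35 were called in all 6 (56.5%, 44.1 to 68.1), near the 54.8% over all start sites. With the lists cut to equal length these shares were 33.9% and 45.2%, and with peaks under the median width of their list left out they were 29.7% and 31.7%.

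**Figure D1:**
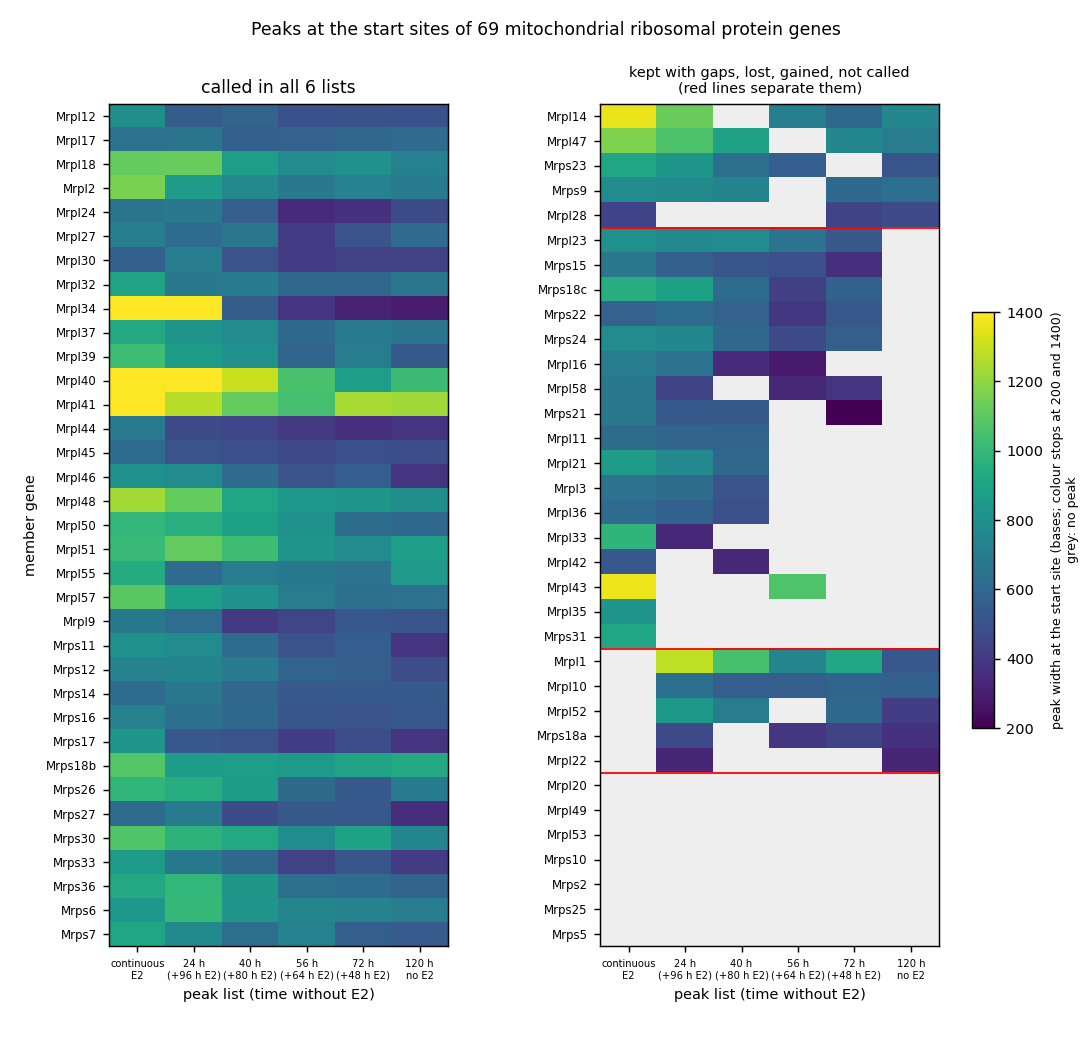
Each row is a member with a start site in the RefSeq table and each column a peak list in order of time without E2, with the hours of restored E2 in brackets. Colour gives the width in bases of the peak at the start site and grey marks no peak. The left panel holds the 35 members called in all 6 lists, and the right panel holds 5 kept with gaps, 17 lost, 5 gained and 7 not called.

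**Figure D2:**
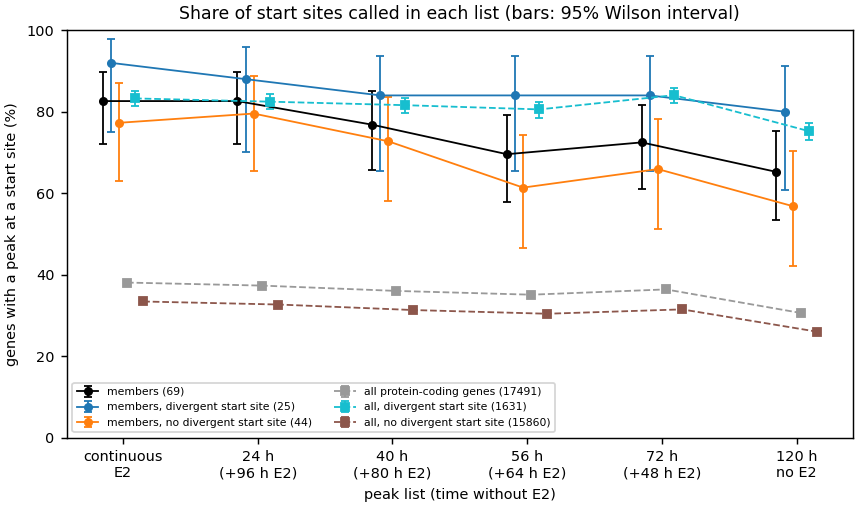
The vertical axis gives the percentage of genes with a peak within 500 bases of a start site in each list, with bars for the 95% Wilson interval over genes. Members without a divergent start site went from 77.3% in continuous E2 to 56.8% at 120 h, and members with one from 92.0% to 80.0%.

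The 17 lost members included proteins of the ribosome's stalk base and core as well as proteins found only in mitochondria. Mrpl35 and Mrps31 were called in continuous E2 alone, with peaks of 826 and 907 bases, as were 241 of 1789 lost start sites over all genes. Mrpl33 was called in continuous E2 with 984 bases and after 24 h with 340 bases, and in no later list. A group of 4 members kept a peak up to 40 h and had none at 56, 72 or 120 h, as did 185 of the 1789. It held Mrpl11, a stalk base protein (623, 591 and 585 bases in continuous E2 and after 24 and 40 h), Mrpl3, a conserved core protein (658, 626 and 509 bases), Mrpl36 (620, 573 and 492 bases) and Mrpl21 (865, 772 and 604 bases). All 4 are large subunit genes with bacterial counterparts, while among the 17 lost members 11 are named Mrpl and 11 have a bacterial number. Mrpl16 was called up to 56 h, with 703, 657, 342 and 286 bases.

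Another 5 members lacked a peak at 120 h alone, as did 607 of the 1789 lost start sites over all genes. Mrpl23 measured 803, 769, 779, 658 and 536 bases from continuous E2 to 72 h. Mrps15 measured 679, 570, 519, 495 and 361 bases. Mrps18c, whose start site faces that of the helicase gene Helq, measured 947, 880, 626, 428 and 571 bases. The 2 others were Mrps22, a small subunit gene mutated in human mitochondrial disease (579, 618, 576, 396 and 527 bases), and Mrps24 (778, 758, 604, 475 and 564 bases). In all 5 the peak after 56 h was narrower than in continuous E2. Over all genes called in all 6 lists the median width also fell between these lists, from 969 to 668 bases.

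The remaining 4 lost members came and went along the order of withdrawal. Mrpl42 had peaks of 530 bases in continuous E2 and 336 bases after 40 h. Mrpl43, whose start site faces that of Twnk, the mitochondrial DNA helicase, was called in continuous E2 with 1368 bases and after 56 h with 1069 bases. Mrpl58, a peptidyl-tRNA hydrolase that frees stalled mitochondrial ribosomes, was missing after 40 h and at 120 h (686, 446, 339 and 385 bases in the other lists). Mrps21 was missing after 56 h and at 120 h, and its peak after 72 h, 193 bases, was the narrowest at any member start site. In all, 13 of 17 lost members switched off once along the order (76.5%, 52.7 to 90.4), against 74.3% of lost start sites over all genes. The share of lost members called after 24, 40, 56 and 72 h was 76.5%, 70.6%, 47.1% and 41.2%, and that of all lost start sites was 75.6%, 63.2%, 52.9% and 53.4%, within the intervals of the members.

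On chromosome 19, where the deposited lists repeat rows, all 4 members called in continuous E2 were lost (Mrpl11, Mrpl16, Mrpl21 and Mrpl43). Without chromosomes 18 and 19 the lost share of start sites was 13 of 53 (24.5%, 14.9 to 37.6), against 26.9% of all start sites there. Over all genes on chromosome 19, 71 of 262 start sites were lost (27.1%). The region of Mrpl11 stood on 4, 4 and 1 rows of the lists of continuous E2, 24 h and 40 h, that of Mrpl16 on 6, 6, 2 and 1 rows up to 56 h, and that of Mrpl43 on 8 rows in continuous E2 and 3 after 56 h. The part of the repeats in these calls was not tested.

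The 5 gained members were Mrpl1, Mrpl10, Mrpl22, Mrpl52 and Mrps18a, and all of them were already called after 24 h of withdrawal with add-back (100%, 56.6 to 100), against 61.2% of all gained start sites, inside that interval. Mrpl10, which anchors the stalk, was called in every list but continuous E2, with 640, 564, 565, 589 and 574 bases in order. Mrpl1 was likewise missing from continuous E2 alone, and its peak measured 1286, 1051, 747, 919 and 524 bases. The pattern of these 2 was held by 225 of 484 gained start sites over all genes. Mrps18a, a paralog of bacterial S18 whose product sits in the large subunit, measured 465, 390, 447 and 373 bases after 24, 56, 72 and 120 h. Mrpl52 was missing from continuous E2 and after 56 h, with 839, 706, 602 and 420 bases in the others. Mrpl22 was called after 24 h and at 120 h alone, with 327 and 330 bases. Except for Mrpl22, the peak of each was narrower at 120 h than after 24 h. Of these 5, 2 switched on once along the order, against 81.2% of gained start sites over all genes, a share on too few members (40.0%, 11.8 to 76.9) to read further.

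Kept members were called in most add-back lists, near the background. Of the 40, 39, 38, 37 and 39 had a peak after 24, 40, 56 and 72 h (97.5%, 95%, 92.5% and 97.5%), against 94.9%, 94.3%, 94.6% and 97.0% of all kept start sites. The 5 with a gap were Mrpl14 (missing after 40 h), Mrpl47 and Mrps9 (after 56 h), Mrps23 (after 72 h) and Mrpl28 (after 24, 40 and 56 h). The peaks of Mrpl28 measured 440, 448 and 472 bases in continuous E2, after 72 h and at 120 h, so it was the one kept start site with gaps whose peak did not narrow.

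The 35 members called in all 6 lists were, with large subunit names, Mrpl2, Mrpl9, Mrpl12, Mrpl17, Mrpl18, Mrpl24, Mrpl27, Mrpl30, Mrpl32, Mrpl34, Mrpl37, Mrpl39, Mrpl40, Mrpl41, Mrpl44, Mrpl45, Mrpl46, Mrpl48, Mrpl50, Mrpl51, Mrpl55 and Mrpl57. With small subunit names they were Mrps6, Mrps7, Mrps11, Mrps12, Mrps14, Mrps16, Mrps17, Mrps18b, Mrps26, Mrps27, Mrps30, Mrps33 and Mrps36. Mrpl46 and Mrps11 share a peak and are not independent. The stalk protein Mrpl12, with 796, 555, 591, 500, 498 and 501 bases, was thus constant while the stalk base protein Mrpl11 was lost and the stalk anchor Mrpl10 was gained. Of the S18 paralogs, Mrps18b was constant (1078, 859, 871, 856, 901 and 924 bases), Mrps18c was lost and Mrps18a was gained. Mrps12, which sits at the decoding centre, measured 733, 741, 696, 588, 563 and 484 bases. Mrpl45 measured 620, 507, 492, 464, 491 and 490 bases, with little change after 24 h.

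The median peak was narrower in lost and gained members than in kept ones. In continuous E2 the median width was 703 bases in the 17 lost members (530 to 1368) and 904 bases in the 40 kept members (440 to 1948). Over all start sites the medians were 922 and 983 bases. At 120 h it was 420 bases in the 5 gained members (330 to 574) and 591 bases in the kept members, against 604 and 636 bases over all start sites. The ranges of the classes overlapped, and no test was made of these differences.

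Constant member peaks narrowed with withdrawal. Over the 35 members called at the start site in all 6 lists, the median width was 900 bases in continuous E2, then 780, 690, 589 and 565 in the add-back lists, and 580 at 120 h. All 35 were narrower at 120 h than in continuous E2, with a median ratio of 0.66 (quartiles 0.584 and 0.778). Over all 4155 genes called in all lists, the medians fell from 969 to 867, 773, 668, 666 and 636 bases, and the median ratio was 0.675. The members' peaks were somewhat narrower than those of all genes in each list, and their narrowing was close to the background.

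**Figure D3:**
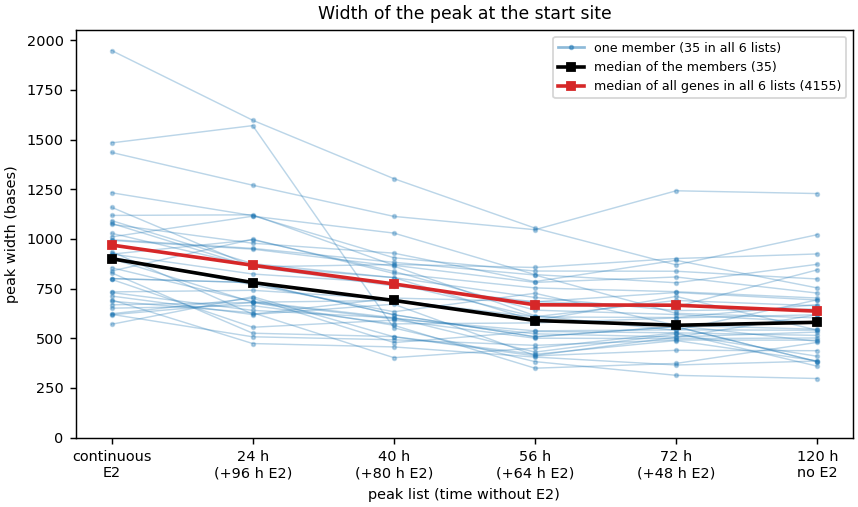
Thin lines give the peak width in bases at the start site of each of 35 members called in all 6 lists, the black line their median and the red line the median over all 4155 genes called in all 6 lists. Both medians fall up to 56 h and then change little, from 589 to 580 bases in members and from 668 to 636 in all genes.

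Among the 29 regions given to members and called in all 6 lists, the 3 widest by their mean lay at Mrpl41 (1222 bases), inside Mrpl1 (948) and at Mrps30 (902), which codes for a protein of the large subunit in spite of its name. That of Mrpl41 measured 1435, 1270, 1113, 1046, 1242 and 1228 bases from continuous E2 to 120 h and widened again after 56 h. The narrowest lay inside Mrps27 (426), near Mrpl33 (432) and at Mrpl54 (498). By the ratio of the widths at 120 h and in continuous E2, Mrpl15 narrowed most, from 1023 to 474 bases, followed by Mrps17 (829 to 386) and the shared region of Mrpl46 and Mrps11 (800 to 382). By the same ratio Mrpl17 narrowed least, from 651 to 618 bases, followed by the Mrpl33 region (556 to 526) and Mrpl54 (462 to 425). Mrpl40, which faces Hira, had the widest start site peak in continuous E2 and was chosen after its values were seen, with 1948, 1597, 1303, 1054, 869 and 1021 bases. Mrpl34, likewise chosen after its values were seen, had peaks of 1483 and 1570 bases in continuous E2 and after 24 h that reached 1302 and 1312 bases upstream, in a region given to Abhd8. From 40 h on its peak measured 552, 382, 313 and 297 bases and reached 305 bases upstream or less.

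Members with a divergent start site were called more steadily than the other members. Of 25 such members 23 were called in continuous E2, against 83.3% of all divergent start sites, and 3 were lost (13.0%, interval 4.54 to 32.1): Mrpl21, Mrpl43 and Mrps18c. Of the 44 others 34 were called in continuous E2 (33.4% of all such start sites), and 14 were lost (41.2%, 26.4 to 57.8). All 5 gained members lacked a divergent start site in the table, as did 407 of the 484 gained start sites over all genes. The table holds 17491 of 21896 protein-coding genes, so a partner outside it would be missed. The gained region of Mrpl10 also touched a boundary of Lrrc46, and the region at Mrpl44, counted as without a divergent start site, was given to Wdfy1. Over all genes in the table the lost share was 15.3% with and 29.8% without a divergent start site, so a lower share with one holds for the table as a whole and is not particular to the members. Of members called in 1 or more lists, 18 of 23 with and 17 of 39 without a divergent start site were in all 6 lists (78.3% and 43.6%), against 68.3% and 51.6% over all genes. This split was made with the values known, and the difference between the member groups was not tested. Some pairs link the mitoribosome with other mitochondrial genes. Mrpl47 and Ndufb5, Mrps12 and Sars2, and Mrps27 and Ptcd2, a mitochondrial RNA processing gene, were called at both end points, and Mrpl43 and Twnk were lost.

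The reach of the peak differed in the same way. In members called in all 6 lists, the peak of continuous E2 reached a median of 621.5 bases upstream and 314.5 downstream where there was a divergent start site, and 372 upstream and 369 downstream where there was none. At 120 h these values were 387.5 and 178.5, and 270 and 308. Over all genes called in all lists the peak of continuous E2 reached 577 bases upstream and 424 downstream with a divergent start site, and 421 and 495 without. The median centre of the peaks at divergent members lay upstream in each of the 6 lists. Single members differed, and the peaks of Mrpl27 and Mrpl57 were centred downstream in every list. In both kinds of members, both sides were shorter at 120 h than in continuous E2.

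**Figure D4:**
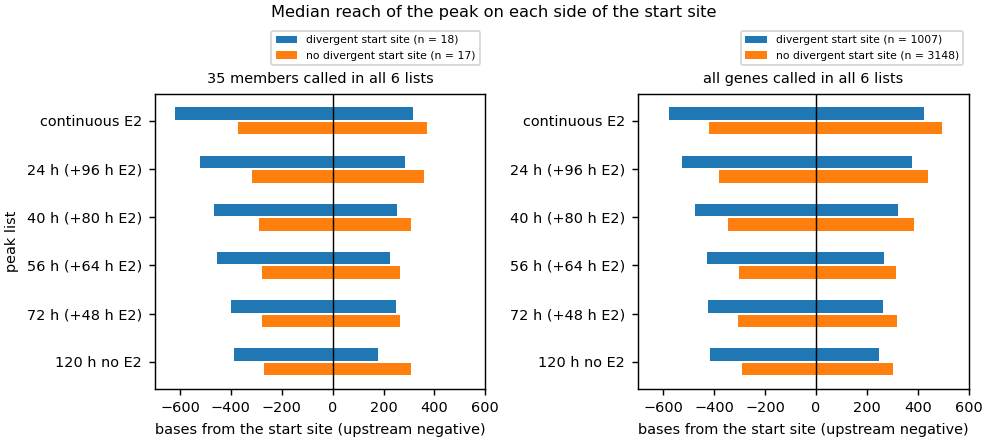
Bars run from the median upstream reach to the median downstream reach of the peak in bases from the start site, for each list, in the 35 members (left) and all 4155 genes (right) called in all 6 lists. Bars of genes with a divergent start site extend further upstream than the others in every list, in members 621.5 against 372 bases in continuous E2.

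Letters of 8 motifs were searched on both strands of the 300-base promoters, from 250 bases before to 50 after each start site. ETS factors, which include GABP, bind CCGGAAG, and 26 of 69 members held it (37.7%), against 12.9% of all genes and 24.9% of genes called in continuous E2. The YY1 letters AAGATGGC were in 12 members (17.4%), against 3.57% and 6.43%. The ZNF143 motif was in 4 (5.80%), against 1.60% and 3.49%. The palindromic NRF1 motif was in 3 members, Mrpl9, Mrpl32 and Mrpl39 (4.35%), against 1.47% and 2.93%. All 3 were called in all 6 lists, as were 35 of the 62 called members and 54.8% of all called start sites. The other letters were near or below the share of all genes: CCAAT of NFY in 39.1% of members against 42.3% of all genes, GGGCGG of SP factors in 49.3% against 49.2%, the E-box CACGTG in 7.25% against 8.91%, and the CRE TGACGTCA in 2.90% against 2.54%. Among those called in continuous E2, each was lower in members than in all genes. SP letters were in 54.4% against 73.6%, NFY in 38.6% against 45.2%, the E-box in 7.02% against 12.6% and the CRE in 1.75% against 4.28%. These are matches of letters and not sites of binding, and no test was made of these differences. Of the 31 ETS matches in member promoters, 19 began within the 100 bases before the start site, as did 34 of 71 SP and 24 of 45 NFY matches. No such count over all genes stands beside these.

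**Figure D5:**
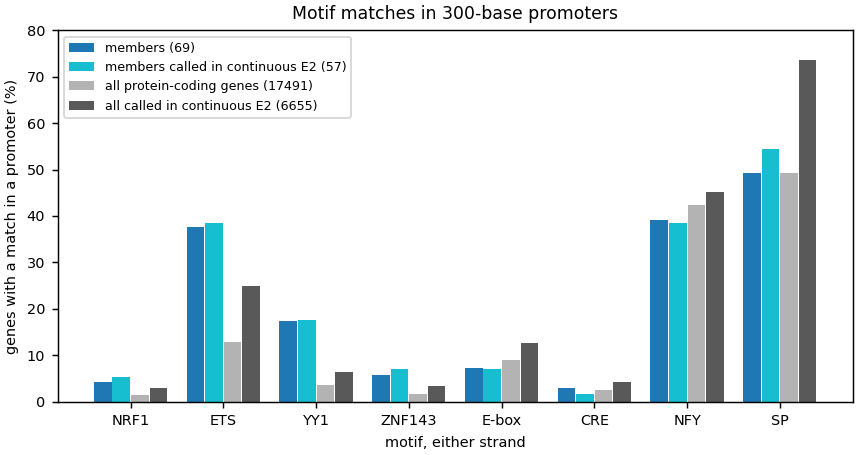
Bars give the percentage of genes with a match on either strand of a 300-base promoter for 8 motifs, in members, in members called in continuous E2, in all genes and in all genes called in continuous E2. The ETS bars stand at 37.7% and 38.6% in the member sets against 12.9% and 24.9% in the gene sets, and SP stands lower in called members (54.4%) than in called genes (73.6%).

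ETS letters did not separate the classes of members. They were in 14 of 40 kept, 8 of 17 lost, 3 of 5 gained and 1 of 7 uncalled members, while over all genes they were in 27.0% of kept, 19.3% of lost and 23.6% of gained start sites. The 80 bases before the start site are shown for 3 lost members (Mrpl3, Mrpl58, Mrps22), 2 gained ones (Mrpl22, Mrps18a) and an uncalled one (Mrpl53), since the same letters stand close to the start site in each. They are from RefSeq, GRCm38.p6, on the strand of the gene, with the ETS letters of either strand in capitals.
Mrpl3: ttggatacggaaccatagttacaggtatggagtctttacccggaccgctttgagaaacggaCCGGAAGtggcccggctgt
Mrpl58: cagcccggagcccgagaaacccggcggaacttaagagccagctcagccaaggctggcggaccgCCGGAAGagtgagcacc
Mrps22: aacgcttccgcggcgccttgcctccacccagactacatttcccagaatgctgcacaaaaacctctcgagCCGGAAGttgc
Mrpl22: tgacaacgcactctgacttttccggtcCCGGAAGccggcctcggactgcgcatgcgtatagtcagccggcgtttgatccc
Mrps18a: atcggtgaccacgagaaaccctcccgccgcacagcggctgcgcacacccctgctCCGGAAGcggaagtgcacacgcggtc
Mrpl53: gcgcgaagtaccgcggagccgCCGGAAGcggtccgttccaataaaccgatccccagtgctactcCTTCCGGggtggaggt
These stretches lie at chr9:105053188-105053267 (plus strand), chr11:115403672-115403751 (plus), chr9:98601680-98601759 (minus), chr11:58171584-58171663 (plus), chr17:46110924-46111003 (plus) and chr6:83109028-83109107 (plus). Base content was lower in lost than in kept members. The median GC content of the promoter was 58.8% in kept and 53.0% in lost members, with 22 and 15 CpG pairs, and over all genes 62.0% in kept and 60.0% in lost start sites, with 23 and 19. In the 5 gained members the medians were 57.0% and 17 CpG pairs. In the 7 uncalled members they were 62.0% and 24 CpG pairs, above those of kept members, but Mrpl20 among the 7 had 43.3% and 8. The part of base content in the calls was not tested.

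Some members had a region away from their start site, and a few of these went another way than the start site. Mrpl33 kept a region 11081 bases from the gene in all 6 lists while its start site was lost after 24 h. Mrpl1 held a region inside the gene (chromosome 5, 96221435 to 96222507) in all 6 lists, with 1073 bases in continuous E2 and 838 at 120 h, while its start site was gained. Mrps18a had a region 36515 bases away in all 6 lists and a gained start site. The 2 regions inside Mrpl48 overlapped further start sites that the table lists for this gene, and 1 of them was in all 6 lists while the other was in continuous E2 alone.

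Of 8 regions outside the gene body, the widest lay 34046 bases from Mrps28, with 1826 bases, and was seen in continuous E2 alone, whereas the region at the boundary of Mrps28 was seen in every list. A region 8801 bases from Mrpl46 was also called in continuous E2 alone, and another 14684 bases from Mrpl39 in continuous E2 and after 24 h. The list of continuous E2 and those of 56 and 72 h held a region 4791 bases from Mrpl14. The region 4588 bases from Mrpl45, which tethers the ribosome near the inner membrane, was called after 72 h alone. Among the 15 member regions more than 1000 bases from any gene start or end, 6 of 13 called in continuous E2 were lost (46.2%, 23.2 to 70.9), against 73.8% of all regions so placed, a share above that interval. In all 6 lists were 6 of the 15 (40%, 19.8 to 64.3), against 14.2%. Those of Mrpl22, Mrpl24, Mrps23 and both inside Mrpl48 lay at start sites of the RefSeq table. Leaving out regions at such start sites, 5 of 9 were lost (55.6%, 26.7 to 81.1), against 77.4% of all, inside the interval, and 4 of 10 were in all 6 lists (40%, 16.8 to 68.7), against 11.3%. At Mrpl58 a region 38 bases beyond the gene was kept, while that at the start site was lost. In all, 9 members had 2 regions: Mrpl1, Mrpl33, Mrpl39, Mrpl45, Mrpl46, Mrpl48, Mrpl58, Mrps18a and Mrps28.

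No list held a peak at the start sites of 7 members: Mrpl20, Mrpl49, Mrpl53, Mrps2, Mrps5, Mrps10 and Mrps25. Mrpl49 and Mrps5 have a divergent start site, of the ribosomal protein gene Fau and of Zfp661. None of these 7 had a region at its boundary. The members Mrpl4, Mrpl13, Mrpl15, Mrpl19, Mrpl38, Mrpl54, Mrps28, Mrps34 and Mrps35 were not in the start site table and were read from gene boundaries alone. There, Mrpl15, Mrpl38, Mrpl54, Mrps28 and Mrps35 had a region in all 6 lists, Mrpl19 in all but 120 h, and Mrpl13, with Mtbp, after 56 and 72 h alone. Mrpl4 had a region inside the gene in continuous E2 and after 40, 56 and 72 h. Mrps34 had none.

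The intervals of members named Mrpl and Mrps overlapped. The split is by name, and the products of Mrps30 and Mrps18a sit in the large subunit. At start sites 11 of 36 Mrpl members called in continuous E2 were lost (30.6%, 18 to 46.9) and 6 of 21 Mrps members (28.6%, 13.8 to 50). Gained members were 4 of 29 and 1 of 16, the latter being Mrps18a. Members with a bacterial number (Mrpl up to 36, Mrps up to 21) were lost in 11 of 32 cases (34.4%, 20.4 to 51.7) and the others in 6 of 25 (24.0%, 11.5 to 43.4), intervals that overlap. In all 6 lists were 18 of 36 called members with a bacterial number and 17 of 26 without (50% and 65.4%, with intervals of 34.5 to 65.5 and 46.2 to 80.6).

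Genes that act with the mitochondrial ribosome were read in the same way. Of 12 genes of mitochondrial translation factors with a start site in the table, 11 were called in continuous E2 and 5 at 120 h, with 6 lost and 0 gained. The lost ones included Gfm1, the elongation factor that moves the ribosome along (1145, 933 and 781 bases up to 40 h), Pdf, the peptide deformylase (989, 880 and 853 bases), and Mtif2, the initiation factor (947, 739 and 492 bases), and none of these 3 had a peak from 56 h on. Of 19 assembly factor genes, 14 were called in continuous E2 and 7 of these were lost, among them Nsun4, Mtg2 and Trub2. The lost shares, 54.5% (28.0 to 78.7) and 50% (26.8 to 73.2), stand beside 26.9% over all start sites, and rest on few genes. Mitochondrial tRNA synthetase genes had 2 lost, Lars2 and Iars2, and 2 gained, Vars2 and Cars2, of 14.

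For the respiratory chain and ATP synthase, 58 of 63 genes were called in continuous E2 and 48 at 120 h, with 12 lost (20.7%, 12.3 to 32.8) and 2 gained. The lost ones with the widest peaks were the complex I genes Ndufb11 and Ndufs4 and Cox7a2l, and the gained ones were Ndufb7 and Ndufb10. Cytosolic ribosomal protein genes, which share no subunit with the mitochondrial ribosome, numbered 62, of which 48 were called in continuous E2 and 57 at 120 h. In that set 1 was lost (Rps4x, 2.08%, 0.369 to 10.9) and 10 of the 57 were gained, against 26.9% and 9.05% over all start sites, the widest at Rpl38, Rpl34 and Rpl14. Between the end points the mitochondrial set went from 57 to 45 of 69, the cytosolic set from 48 to 57 of 62 and all start sites from 6655 to 5350. The fall of the mitochondrial set was thus shared by the table as a whole, and the difference between the sets was not tested.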

How the data were processed

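The study made 12 ATAC-seq libraries, 2 in each of 6 groups. The deposited files hold 1 peak list per group with chromosome, start and end alone. How the peaks of 2 libraries were brought into 1 list is not given in the sources used here. The submitters' processing notes name BWA, MACS2 2.0 and STAR 2.5 without roles, and the build mm9. The coordinates were checked against GRCm38.p6: 57 of 69 member start sites lay inside a continuous E2 peak, and 0 after a shift of 10000 bases, so GRCm38 was used. Depth is unknown.

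Duplicate rows and intervals over 10000 bases were dropped and overlapping rows merged. Regions were the union of the lists, by 1 base or more. Among several overlapping genes, the one with a start or end nearest the region's centre was taken. Start sites were read from the RefSeq promoter table. No set test or replicate test was run. The members, lists and splits were chosen with earlier results of these data known. The text names members that were lost, gained, at neither end point, uncalled or with 2 regions, the extremes of width and narrowing, the 5 closest divergent pairs, and up to 3 lost and 3 gained genes per other list, by width. Merging, union and assignment were tested on simulated data. Python 3.11.15, numpy 2.4.6, pandas 2.3.3, scipy 1.17.1 and matplotlib 3.10.9 were used.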

Additional observations from a re-analysis of the deposited data

How the results depend on the processing

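No paired analysis was possible because the lists do not separate the libraries of a group. Leaving out 1 library was likewise not possible. Cutting each list to its 7987 widest peaks left the 120 h list whole, so the gained share of start sites could not fall. The gained share of member regions was then 47.4% and the share in all 6 lists 25.5%, and at start sites 37.8% and 33.9%. Over all start sites these were then 23.4% and 45.2%. Leaving out the peaks narrower than the median of their list, 28 members had a region, the lost, gained and constant shares of regions were 57.9%, 33.3% and 16.7%, and the constant share of start sites was 29.7%. Without divergent members the constant share of start sites was 43.6%. On the forward strand alone, ETS, NFY and SP letters were in 21.7%, 17.4% and 24.6% of members, against 7.11%, 24.5% and 33.6% of all genes. Reciprocal overlap of 50%, assignment within 20000 or 1000 bases, every member within 1000 bases and leaving out chromosomes 18 and 19 kept all shares of regions inside the intervals of the main values. For start sites, distances of 0 and 1000 bases changed the number of lists in 1 and 0 of 69 members, equal length in 28 and the median width in 47. The start site settings were added after seeing the data.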

Other observations

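Genes for mitochondrial transcription and genome upkeep were called at 16 of 21 start sites in continuous E2 and at 15 at 120 h. The shares over all genes were 38.0% and 30.6%. Of the 16, 2 were lost (12.5%, 3.5 to 36.0), against 26.9% over all start sites, inside that interval. Polrmt, the mitochondrial RNA polymerase, was missing from continuous E2 alone, with 747, 865, 542, 600 and 545 bases in the later lists. This pattern, also that of Mrpl1 and Mrpl10, was held by 225 of the 484 gained start sites over all genes and is not particular to them. Hsd17b10, a subunit of mitochondrial RNase P, was missing at 120 h alone. Of 13 genes of regulators such as Nrf1, Gabpa and Myc, 11 were called in continuous E2 and 10 at 120 h. The 1 lost among these 11 (9.09%, 1.62 to 37.7) was Gabpb1, a partner of the ETS factor GABPA. The 26.9% over all start sites lay inside that interval, so the loss is not particular to the regulators. Peaks of Gabpb1 measured 1247, 1271, 973 and 894 bases in continuous E2 and after 24, 40 and 72 h.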
